A study of Rattus norvegicus with 56 samples.

Results

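The genes described here mark the inhibitory interneurons of the rat forebrain. They are Gad1, Gad2, Slc32a1, Pvalb, Calb1, Calb2, Reln and Lhx6, taken as every non-control probe of the array whose accession RefSeq assigns to one of these symbols. All 8 were found among the 16581 genes that could be named, on 13 of 45598 distinct probes. Gad1, Calb2 and Lhx6 had 2 probes each, Reln had 3 and the other 4 genes had 1. The second Gad1 probe was far dimmer than the first, with a median signal intensity of 285 against 34700 in hippocampus and 296 against 32600 in cortex. A gene was read from its probe of highest mean signal. That probe was well above background in all 24 animals in both regions for every gene, and none of its spots was saturated on any of the 56 arrays.

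The samples were hippocampus and parietal cortex of male Long-Evans rats, hybridized separately to Agilent single-dye arrays 48 h after sham treatment or theta-burst stimulation of the intermittent kind (iTBS), a patterned repetitive magnetic stimulation given through a coil over the head. Young rats (Y) were 6 to 7 months old, and aged rats were 26 to 27 months old and were classed, according to the labels, by water maze performance as unimpaired (AU) or impaired (AI). The young rats comprised 4 Y_Sham and 4 Y_iTBS animals. Among the aged rats, 4 AU_Sham and 4 AI_Sham animals stood against 5 AU_iTBS and 3 AI_iTBS animals. All rats, sham rats included, were sedated for the procedure, and the tissue was dissected from the dorsal hippocampus and the neocortex under the coil. Tissue pieces hold many cell types, so fewer cells of a type and less RNA per cell cannot be told apart in any value below.

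Interneurons release gamma-aminobutyric acid (GABA), which they make from glutamate with the decarboxylases encoded by Gad1 and Gad2 and load into synaptic vesicles with the transporter encoded by Slc32a1. These 3 genes are shared by nearly all inhibitory neurons. The others mark classes: Pvalb encodes parvalbumin, the calcium-binding protein of fast-spiking basket and chandelier cells, Calb1 and Calb2 encode the calcium-binding proteins calbindin and calretinin, Reln encodes the secreted protein reelin, and Lhx6 is a transcription factor of interneurons born in the medial ganglionic eminence. Some are not limited to interneurons, since calbindin is also made by dentate granule cells and reelin and calretinin by Cajal-Retzius cells.

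Levels are given as normalized log2 signal, where 0 is the mean of all probes of an array and 1 unit is close to a doubling. Because probes differ in how well they bind, a level is compared only between samples of the same probe. In the hippocampus of the 24 animals the lowest, median and highest levels were 6.90, 7.45 and 7.81 for Gad1, 4.23, 4.61 and 5.04 for Gad2, and -0.49, -0.0090 and 0.36 for Slc32a1. In the cortex they were 7.19, 7.83 and 8.15 for Gad1, 4.25, 4.68 and 5.16 for Gad2, and -0.57, 0.056 and 1.70 for Slc32a1. The genes of GABA synthesis thus varied over about 1 unit between animals, and Slc32a1 in the cortex over more than 2 units.

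The means of the 6 groups lay farther apart in the cortex for Gad2, Slc32a1, Calb1, Reln and Lhx6. For Calb2 they lay farther apart in the hippocampus, and for Gad1 and Pvalb the regions were much alike. Over all probes tested, the median SD over animals was also larger in the cortex, at 0.36 against 0.27 in the hippocampus. The distance between the lowest and highest of the 6 group means in the hippocampus was 0.35 for Gad1, 0.14 for Gad2, 0.27 for Slc32a1, 0.29 for Pvalb, 0.46 for Calb1, 0.77 for Calb2, 0.16 for Reln and 0.28 for Lhx6. In the cortex it was 0.30, 0.59, 0.95, 0.28, 0.53, 0.44, 0.60 and 0.50 for the same genes in the same order. When the groups were ordered by their mean, none of the 40 steps between neighbouring groups in the hippocampus and 2 of 40 in the cortex exceeded the SD within groups. Both of those steps led down from the highest group: from AU_Sham to the next group for Gad2 (0.26, SD within groups 0.23) and from AU_iTBS to the next group for Slc32a1 (0.49, SD within groups 0.44).

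**Figure D1:**
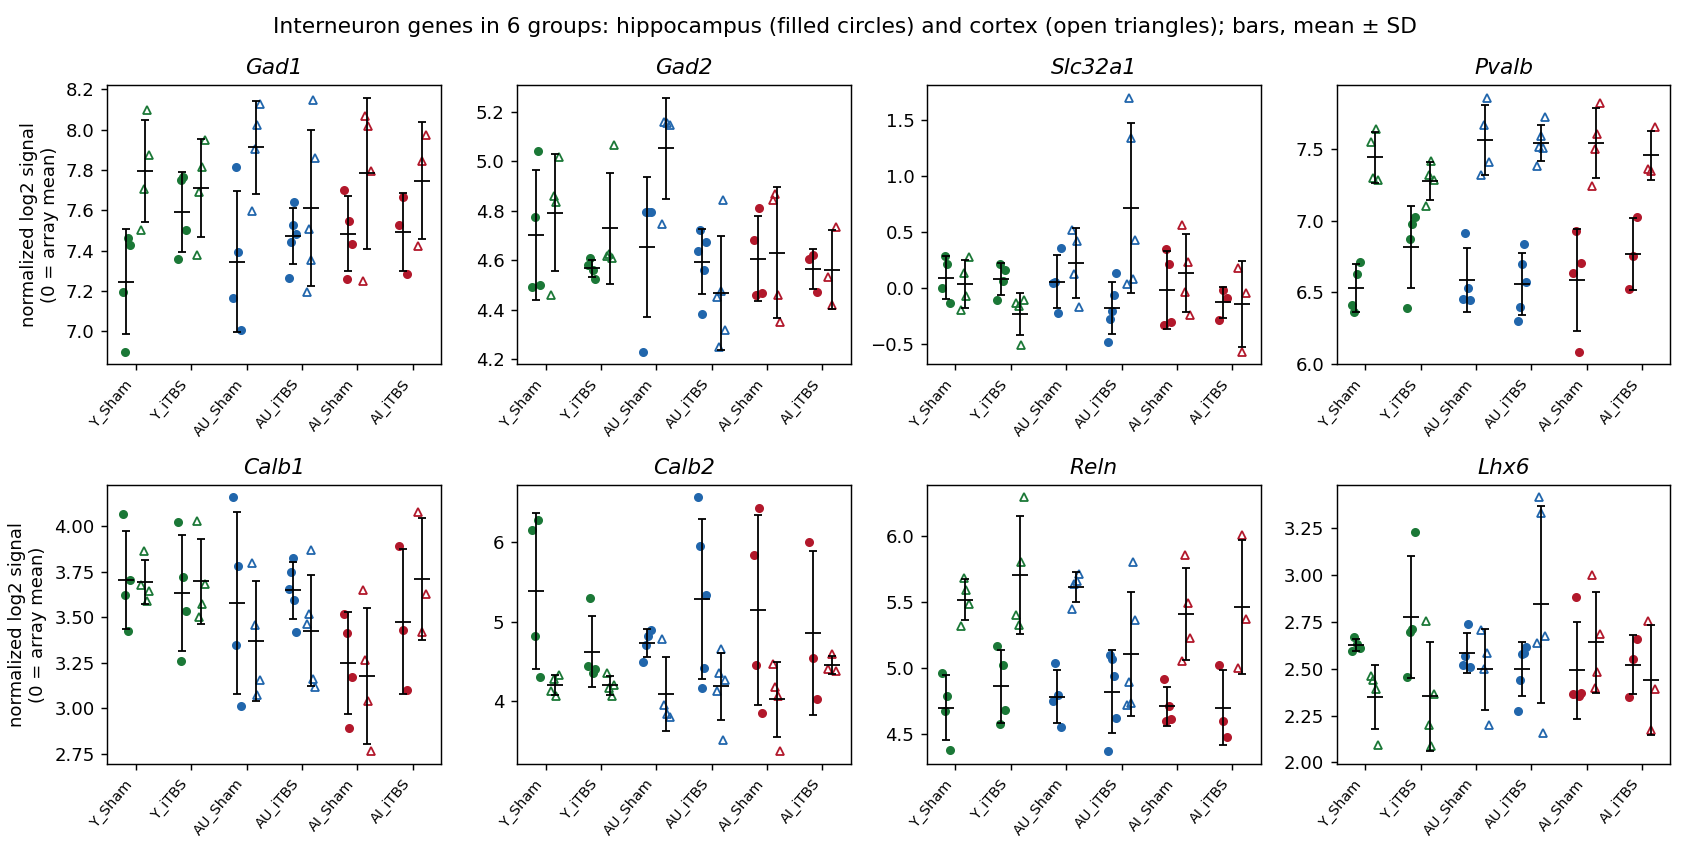
Normalized log2 signal (y axis, 0 = array mean) of the 8 genes in the 6 groups (x axis), with a point for each animal, filled circles for hippocampus, open triangles for cortex, and bars for mean ± SD of 3 to 5 animals. Pvalb is higher in the cortex than in the hippocampus in every animal, while Calb2 in the hippocampus is spread from 3.85 to 6.57.

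Hippocampus and cortex of the same animal were compared first, as the difference within each of the 24 animals, averaged over the 6 groups (limma, Benjamini-Hochberg adjustment over 33787 probes). Pvalb, Reln and Gad1 were higher in the cortex and Calb2 was higher in the hippocampus, while Gad2, Slc32a1, Calb1 and Lhx6 did not pass the test. These are 4 of 8 genes, against 49.4% of all probes called in this comparison (26.3% higher and 23.1% lower in hippocampus), so the number called is near the background. At an unadjusted p under 0.05 there were 4 of 8, against 55.2% of probes.

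Averaged over the 6 groups, Pvalb had the largest difference of the 8 genes, only slightly larger than that of Calb2. It was the one gene with the same direction in every animal. Its lowest, median and highest levels were 6.09, 6.63 and 7.02 in the hippocampus and 7.10, 7.46 and 7.86 in the cortex, so the regions did not overlap, as was the case for 2.87% of all probes tested. The cortex was higher in 24 of 24 animals, by 0.26 to 1.52. The mean difference of hippocampus minus cortex was -0.83 (SE 0.058), which is 1.78-fold in favour of the cortex (adjusted p = 1.48e-10).

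Reln ranged from 4.37 to 5.16 in the hippocampus, with a median of 4.73, and from 4.72 to 6.29 in the cortex, with a median of 5.47. The regions overlapped, and the cortex was higher in 21 of 24 animals. The difference was -0.70 (SE 0.099, 1.63-fold, adjusted p = 4.57e-06), and the other Reln probes gave -0.70 and -0.60. Gad1 was higher in the cortex in 19 of 24 animals, with a smaller difference of -0.32 (SE 0.075, 1.25-fold, adjusted p = 0.00135) and -0.31 at its other probe.

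Calb2 went the other way. Its lowest, median and highest levels were 3.85, 4.76 and 6.57 in the hippocampus and 3.36, 4.19 and 4.78 in the cortex. The hippocampus was higher in 19 of 24 animals, and the difference within an animal ran from -0.50 to 2.44. The mean difference was 0.81 (SE 0.18, 1.76-fold, adjusted p = 0.000773), and 0.75 at the other Calb2 probe.

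The remaining genes had small region differences. Hippocampus minus cortex was -0.091 for Gad2 (95% interval -0.21 to 0.033, adjusted p = 0.217), -0.14 for Slc32a1 (-0.36 to 0.089, adjusted p = 0.311), 0.035 for Calb1 (-0.087 to 0.16, adjusted p = 0.648) and 0.063 for Lhx6 (-0.12 to 0.24, adjusted p = 0.572). The second Lhx6 probe was well above background in no hippocampus and in 2 of 24 cortex samples and was not tested.

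The animals had been scanned in batches, 15 animals in the first scan batch and 9 in later ones, with both regions of an animal in the same part. Levels of several genes differed between these parts, most of all Gad1 in the cortex, where 76.1% of its variance over animals lay between scan batches, against a median of 13% over all probes tested there. Cortical Gad1 averaged 7.95 in the first batch and 7.43 in the later ones, and cortical Reln 5.64 and 5.14. Cortical Lhx6 went the opposite way, from 2.36 to 2.83.

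The region differences were therefore recomputed within each part. Pvalb was -0.80 in the first batch (adjusted p = 1.57e-05) and -0.85 in the later ones (adjusted p = 0.00259), with 15 of 15 and 9 of 9 animals higher in the cortex. Calb2 was 0.74 (adjusted p = 0.00887) and 0.87 (adjusted p = 0.134). Reln was -0.95 (adjusted p = 7.27e-06) and -0.28 (adjusted p = 0.169), and Gad1 was -0.45 (adjusted p = 0.00117) and -0.066 (adjusted p = 0.649).

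Lhx6 turned direction between the parts, at 0.29 in the first batch (adjusted p = 0.00653) and -0.34 in the later ones (adjusted p = 0.061). Slc32a1 did so too, at 0.070 (adjusted p = 0.574) and -0.49 (adjusted p = 0.093). Of the 4 called genes, Pvalb alone was called within both parts. The later part holds 9 animals in 6 groups, and the part of the scan batch in these differences was not tested.

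**Figure D2:**
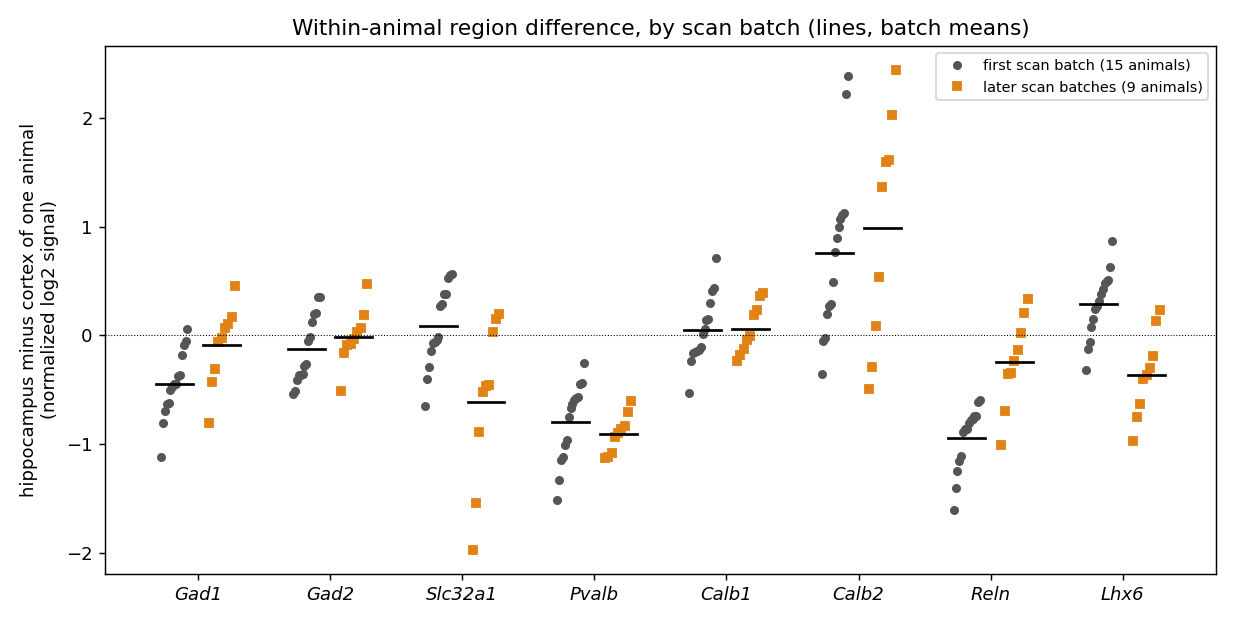
Hippocampus minus cortex of the same animal in normalized log2 signal (y axis) for the 8 genes (x axis), grey circles for the 15 animals of the first scan batch and orange squares for the 9 of the later ones, with lines at the batch means. Pvalb lies below 0 in all 24 animals, and the batch means lie apart for Slc32a1 (0.086 and -0.61), Reln (-0.95 and -0.25), Lhx6 (0.29 and -0.36) and Gad1 (-0.45 and -0.092).

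**Figure D3:**
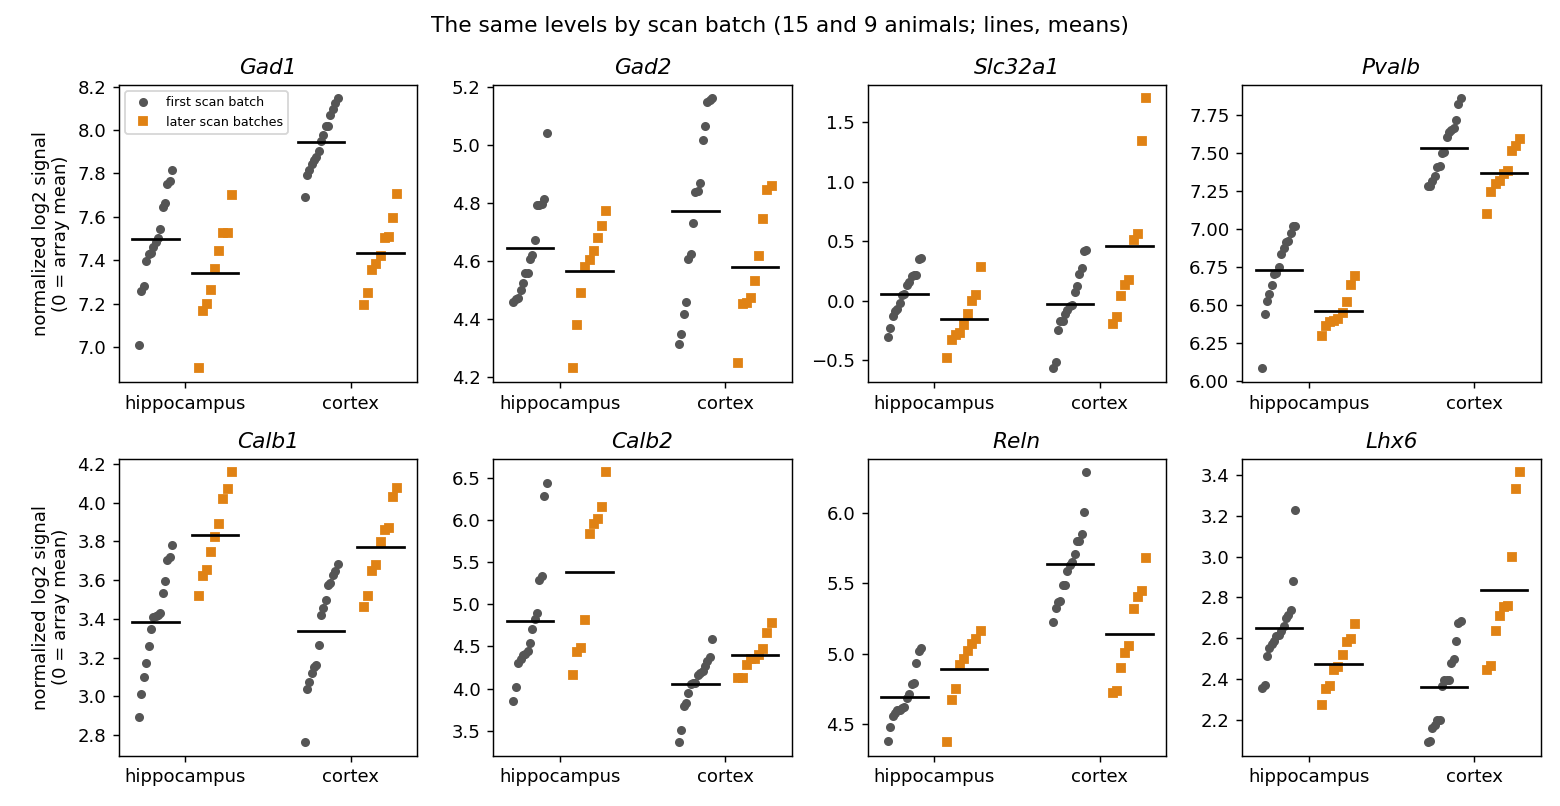
Normalized log2 signal (y axis) of the 8 genes in hippocampus and cortex (x axis), grey circles for the 15 animals of the first scan batch and orange squares for the 9 of the later ones, with lines at the means. Cortical Gad1 averages 7.95 in the first batch and 7.43 in the later ones, and cortical Lhx6 2.36 and 2.83.

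Other genes of interneurons were read in the same region comparison from fixed lists, whose counts stand against 26.3% of all probes called higher and 23.1% called lower in hippocampus. Of 11 interneuron peptides, 8 were lower and 2 higher in the hippocampus, with a median difference of -0.86 against 0.019 over all probes, and the share called higher was below the background and the share called lower above it. Crh, corticotropin-releasing hormone, had a difference of -1.88 (SE 0.050) and Vip, vasoactive intestinal peptide, -1.69 (SE 0.094), while Tac3, the precursor of neurokinin B, and Pdyn, the precursor of dynorphins, were both at 0.61.

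Fast-spiking cell genes gave 7 lower and 3 higher of 12, with a median of -0.50, the share called higher being near the background of 26.3%. Syt2, a calcium sensor of fast transmitter release, was at -1.38 and Tac1, the precursor of substance P, at -1.26, whereas the perineuronal net genes Hapln4 (1.21) and Acan (0.39) were higher in the hippocampus.

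Of 14 interneuron transcription factors tested, 7 were lower and 3 higher, against 23.1% and 26.3% of all probes, with a median of -0.31. Nr2f1 was among the lower ones (-1.07), and Nkx2-1 (1.70) and Npas1 (0.47) were the highest. Of 11 genes of other interneuron classes, 4 were lower and 5 higher, with a median of 0.082, from Lamp5 (-1.88) and Id2 (-0.58) to Cnr1, the cannabinoid receptor (0.74), and Sncg (0.62). Among 6 genes of GABA uptake and breakdown, 1 was called lower and none higher, with a median of -0.12. C1ql2, a gene of dentate granule cells, was higher in the samples labelled hippocampus, at 4.60. Of 4 markers of Cajal-Retzius cells, which also make reelin and calretinin, 2 were called higher in the hippocampus, Lhx1 (1.53) and Ebf3 (1.12), and none lower, against 49.4% of all probes called in either direction. Their part in the Calb2 and Reln differences was not tested.

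The main question of the study was what iTBS changes. No gene of the 8 was called between iTBS and sham in either region, in young, AU, AI or all aged animals (limma, adjusted p under 0.05). In 7 of these 8 comparisons no probe at all was called (0%), and in AI cortex 2 of 32612 probes were (0.00613%). Each iTBS group was compared with the sham group of its own class, and the aged comparison used the same animals as the AU and AI ones. At an unadjusted p under 0.05 there was 1 of the 8 genes in young hippocampus, against 4.51% of all probes, 2 in AU cortex, against 8.37%, 1 in AI cortex, against 4.08%, and 1 in cortex of all aged animals, against 2.92%. There was none in aged hippocampus (2.48% of all probes), AU hippocampus (2.28%), AI hippocampus (1.95%) or young cortex (2.7%).

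In young hippocampus the gene was Gad1. Its levels were 7.20, 6.90, 7.46 and 7.43 in the Y_Sham animals and 7.36, 7.75, 7.76 and 7.50 in the Y_iTBS animals. The groups overlapped between 7.36 and 7.46. The difference was 0.35 (SE 0.16, adjusted p = 0.931), and 0.45 at the other Gad1 probe. It was 0.23 within the first scan batch and 0.31 within the later ones, which held 1 Y_iTBS animal.

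In AU cortex the gene of smallest p was Gad2. Its levels were 4.74, 5.16, 5.16 and 5.15 in AU_Sham and 4.45, 4.25, 4.47, 4.84 and 4.32 in AU_iTBS. Only the lowest sham animal and the highest stimulated animal overlapped. The difference was -0.59 (SE 0.16, adjusted p = 0.579) and -0.58 within the first scan batch. Within the later ones, which held 1 AU_Sham animal, the lowest of its group in Gad2, it was -0.35. In all aged animals it was -0.33 (SE 0.12, adjusted p = 1.00), and in AI animals, whose sham levels were 4.85, 4.87, 4.46 and 4.35 and stimulated levels 4.53, 4.42 and 4.73, every stimulated animal lay within the sham range.

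Reln in AU cortex had levels of 5.44, 5.63, 5.65 and 5.71 in AU_Sham and 4.72, 4.90, 4.73, 5.80 and 5.36 in AU_iTBS. The 3 low AU_iTBS animals were those of the later scan batches, which held 1 of the 4 sham animals. The difference was -0.51 (SE 0.24, adjusted p = 0.579), -0.081 within the first scan batch and -0.66 within the later ones. Of the other Reln probes, 1 gave -0.52 (adjusted p = 0.581) and 1 gave -0.020 (adjusted p = 0.981), so the Reln probes disagree here. Leaving out single animals, the difference ran from -0.68 without AU_iTBS animal 4 to -0.41 without AU_iTBS animal 1.

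Calb1 in AI cortex had levels of 3.65, 3.27, 3.04 and 2.76 in AI_Sham and 4.08, 3.42 and 3.63 in AI_iTBS. Of the stimulated animals, 1 lay above all sham animals. The difference was 0.53 (SE 0.22, adjusted p = 1.00), with 0.50 within the first scan batch and 0.34 without AI_iTBS animal 1. Within the later scan batches it was 0.43, which is that same animal against 1 AI_Sham animal. In the comparisons with no gene at an unadjusted p under 0.05, the smallest p belonged to Slc32a1 in aged hippocampus (-0.17, adjusted p = 0.978) and AU hippocampus (-0.24, adjusted p = 1.00), Calb1 in AI hippocampus (0.23, adjusted p = 1.00) and Pvalb in young cortex (-0.16, adjusted p = 1.00). Single animals moved these values, Calb1 in AI hippocampus to 0.017 without AI_iTBS animal 1 and to 0.41 without AI_iTBS animal 3, Pvalb in young cortex to -0.097 without Y_Sham animal 3, Slc32a1 in AU hippocampus to -0.14 without AU_Sham animal 4, and Slc32a1 in aged hippocampus to -0.11 without AI_Sham animal 2. The second Gad1 probe reached an unadjusted p under 0.05 in young cortex, where iTBS minus sham was 0.54 (SE 0.22, adjusted p = 1.00), and the first did not, and the second Calb2 probe reached that threshold in AI cortex (0.56, SE 0.21, adjusted p = 1.00).

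In young hippocampus the 95% interval for Gad1 ran from 0.0097 to 0.68, and in AU cortex that for Gad2 ran from -0.92 to -0.25. The effect of iTBS in aged minus young animals was tested as an interaction and called for none of the 8 genes (0% of probes in either region). None reached an unadjusted p under 0.05, against 4.29% of probes in hippocampus and 3.21% in cortex, and the smallest p was that of Gad1 in hippocampus (-0.28, adjusted p = 0.801) and Reln in cortex (-0.41, adjusted p = 1.00). The iTBS effect in hippocampus minus that in cortex was also called for none (0%). In young animals it was 0.45 for Pvalb (SE 0.20, adjusted p = 1.00), the one gene of 8 at an unadjusted p under 0.05, against 2.65% of all probes, and in aged animals the smallest p was that of Gad2 (0.28, adjusted p = 1.00), with none at an unadjusted p under 0.05, against 2.28%. Pvalb in hippocampus was 6.41, 6.36, 6.63 and 6.71 in Y_Sham and 6.39, 6.87, 6.97 and 7.02 in Y_iTBS. In cortex it was 7.55, 7.30, 7.64 and 7.28 in Y_Sham and 7.10, 7.32, 7.42 and 7.28 in Y_iTBS. The groups overlapped in both regions, with 3 of 4 stimulated animals above all sham animals in hippocampus. Those 3 were of the first scan batch, while the other stimulated animal and the 2 lowest sham animals were of the later ones. Hippocampal Pvalb averaged 6.73 in the first batch and 6.46 in the later ones, and the part of the scan batch was not tested.

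**Figure D4:**
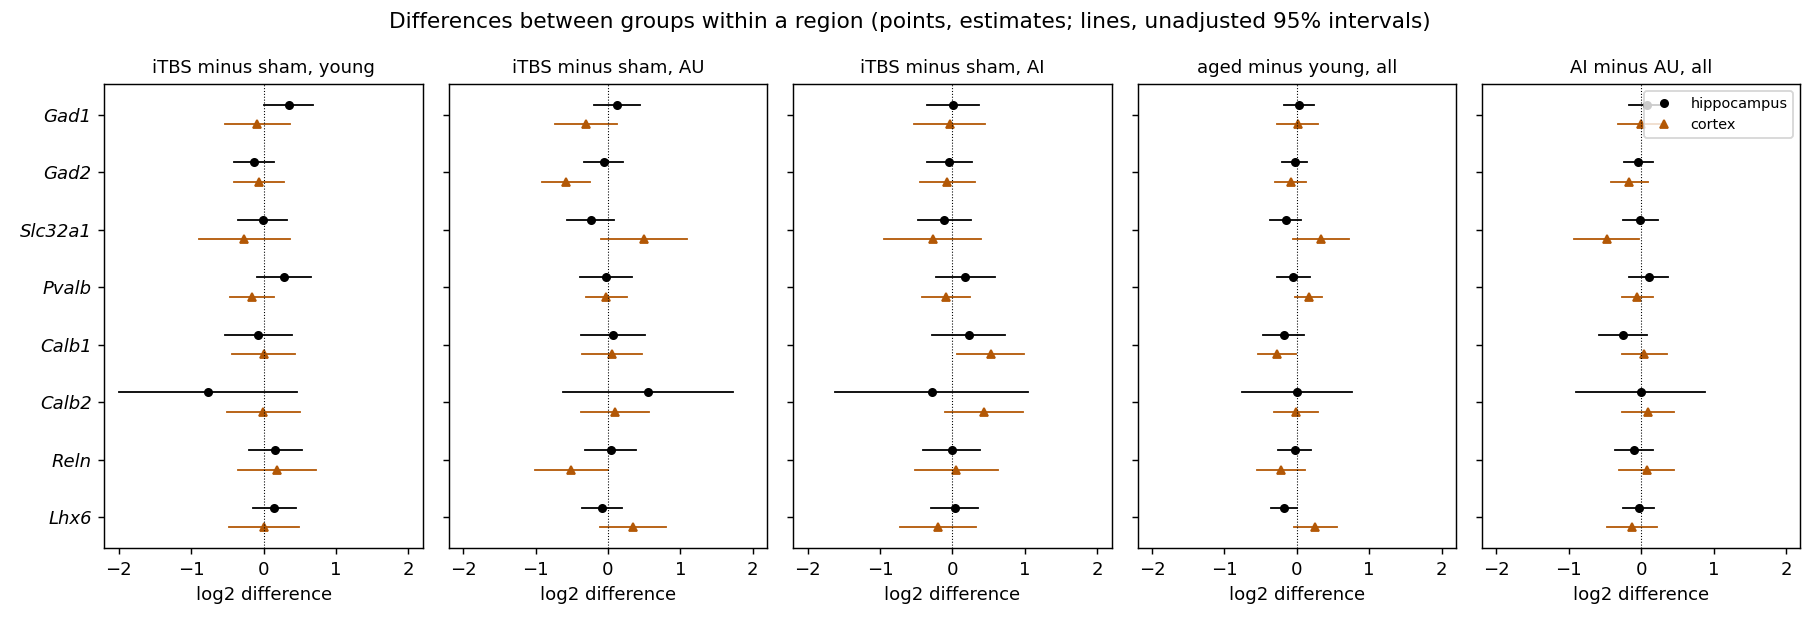
Log2 differences (x axis) between groups for the 8 genes (y axis), black circles for hippocampus and brown triangles for cortex, with unadjusted 95% intervals from the fit of all 24 animals. In AU cortex Gad2 lies at -0.59 and Reln at -0.51, and no difference passed the adjusted test.

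Age was compared in sham animals and in all animals. No gene of the 8 was called (limma). Over all probes, aged minus young in all animals called 166 of 32517 probes in hippocampus (0.511%; 0.421% higher, 0.0892% lower) and 131 of 32612 in cortex (0.402%; 0.236% higher, 0.166% lower), and in sham animals 0.00308% in hippocampus and 0.104% in cortex (0.0767% higher, 0.0276% lower). Calb1 in the cortex was the one gene at an unadjusted p under 0.05, in both forms of the comparison, against 14.3% of all probes in all animals and 9.46% in sham animals.

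Calb1 was 3.68, 3.86, 3.59 and 3.64 in Y_Sham cortex, 3.80, 3.45, 3.07 and 3.15 in AU_Sham and 3.65, 3.27, 3.04 and 2.76 in AI_Sham. Most aged animals lay below the young ones, and the highest of each aged group overlapped them. Aged minus young was -0.42 in sham animals (SE 0.18, adjusted p = 0.488) and -0.27 in all animals (SE 0.13, adjusted p = 0.339). In sham animals it was -0.49 within the first scan batch and -0.047 within the later ones, and in all animals -0.37 and -0.12. The later scan batches held 2 Y_Sham, 1 AU_Sham and 1 AI_Sham animals.

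In hippocampus the gene of smallest p was Lhx6 in all animals (-0.18, SE 0.087, adjusted p = 0.388) and Calb1 in sham animals (-0.29, adjusted p = 0.639), with no gene at an unadjusted p under 0.05, against 13.3% and 8.18% of probes. At the other, far dimmer Gad1 probe, aged minus young in cortex was 0.66 in sham animals (SE 0.19, adjusted p = 0.296) and 0.39 in all animals (adjusted p = 0.244), both at an unadjusted p under 0.05, which the probe that stands for the gene did not reach. In cortex of all animals 1 of 12 fast-spiking cell genes was called with age, against 0.402% of all probes, and none of the 11 peptides, 6 uptake and breakdown genes, 14 transcription factors and 11 genes of other classes tested. This was Hapln1, a link protein of perineuronal nets, which was 0.48 lower on the log2 scale in aged cortex (difference -0.48, SE 0.079, adjusted p = 0.00489).

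The age difference in hippocampus minus that in cortex was called for none of the 8 genes, against 0.0237% of 33787 probes (0.00592% higher, 0.0178% lower). It was -0.48 for Slc32a1 (SE 0.23, adjusted p = 0.312) and -0.43 for Lhx6 (SE 0.18, adjusted p = 0.303), the 2 genes at an unadjusted p under 0.05, against 15.9% of probes. Within the first scan batch Slc32a1 was at -0.16 and within the later ones at -0.89, and Lhx6 at -0.35 and -0.42.

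AI and AU animals were compared in the same ways, and again no gene of the 8 was called (limma), against 0.00308% of probes in hippocampus of all aged animals and 0% in the other 3 comparisons. In the cortex, AI_Sham minus AU_Sham was -0.42 for Gad2 (SE 0.17, adjusted p = 0.694), the one gene at an unadjusted p under 0.05, against 6.43% of probes. That difference was -0.60 within the first scan batch. Within the later ones it was 0.10, from 1 AI_Sham and 1 AU_Sham animal, the AU_Sham animal being the one of lowest Gad2 in its group. Slc32a1 in cortex of all AI minus all AU animals was -0.48 (SE 0.22, adjusted p = 0.492), again the one gene at that threshold, against 9.69% of probes. Its levels in AU_iTBS cortex were 0.036, 1.70, 1.34, 0.076 and 0.42, where 2 animals of the later scan batches stood above all others, and the difference was -0.35 within the first batch and -0.40 within the later ones. In hippocampus the gene of smallest p was Calb1, at -0.33 in sham animals (adjusted p = 1.00) and -0.25 in all (adjusted p = 0.841), with none at an unadjusted p under 0.05, against 4.04% and 6.68% of probes. At its second probe Gad1 in cortex was -0.49 in sham animals (adjusted p = 0.749) and -0.53 in all (adjusted p = 0.376), both at an unadjusted p under 0.05, which the first probe did not reach.

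Calb2 in the hippocampus had an SD of 0.84 over animals, above that of 93.4% of the probes tested, and 12.4% of its variance lay between the 6 groups. Its highest levels were 6.57 in AU_iTBS animal 1, 6.44 in AI_Sham animal 3, 6.28 in Y_Sham animal 3 and 6.16 in Y_Sham animal 1. Its lowest were 3.85 in AI_Sham animal 4, 4.02 in AI_iTBS animal 3 and 4.16 in AU_iTBS animal 3, so high and low animals occurred in the same groups. Over 6 technical repeats of both regions, Calb2 differed from the first array of the animal by at most 0.13. The cortex repeat that matched another animal was left out of these. In hippocampus, Calb2 of Y_Sham animal 3 was 6.25 on the first array and 6.38 and 6.22 on repeats. That of AI_iTBS animal 2 was 4.58 and 4.49.

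Calb2 in the hippocampus moved with markers of other cell types. It rose and fell with the mean of the 6 of 8 listed choroid plexus genes that were well above background in all animals (Pearson r = 0.74, permutation p = 5e-05, adjusted p = 0.004, Spearman rho = 0.65, permutation p = 9e-04, adjusted p = 0.0231, 24 animals). The mean level of those genes ranged from 1.33 to 5.22 over animals, with a median of 2.28. In the cortex, where 4 of the genes could be used, r with Calb2 was -0.48 (permutation p = 0.0193, adjusted p = 0.0996). Without the 2 animals farthest from the median of Calb2, r was 0.72, and it was 0.64 within the first scan batch and 0.78 within the later ones. The choroid plexus gene Otx2, a homeobox factor, followed Calb2 with r = 0.88 and Ttr, transthyretin, with r = 0.63.

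The mean of 7 oligodendrocyte genes, which ranged from 6.67 to 7.52, gave r = 0.70 (permutation p = 9e-05, adjusted p = 0.0048) and rho = 0.69 (permutation p = 0.00021, adjusted p = 0.0168) with Calb2, 0.68 without the 2 farthest animals, and 0.51 and 0.86 within the scan batches. Of the 8 listed genes, Mbp had the lowest r with Calb2 (0.21) and Cldn11 the highest (0.76). In the cortex, where 8 of the genes could be used, r with Calb2 was -0.54 (permutation p = 0.00703, adjusted p = 0.0592). The choroid plexus and oligodendrocyte relations in hippocampus are 2 of 160 relations of the 8 genes with marker lists, over which the p-values were adjusted. Both lists were also higher in hippocampus than in cortex, 6 of 8 choroid plexus genes and 7 of 8 oligodendrocyte genes being called so, against 26.3% of all probes. Their part in the region difference of Calb2 was not tested.

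**Figure D5:**
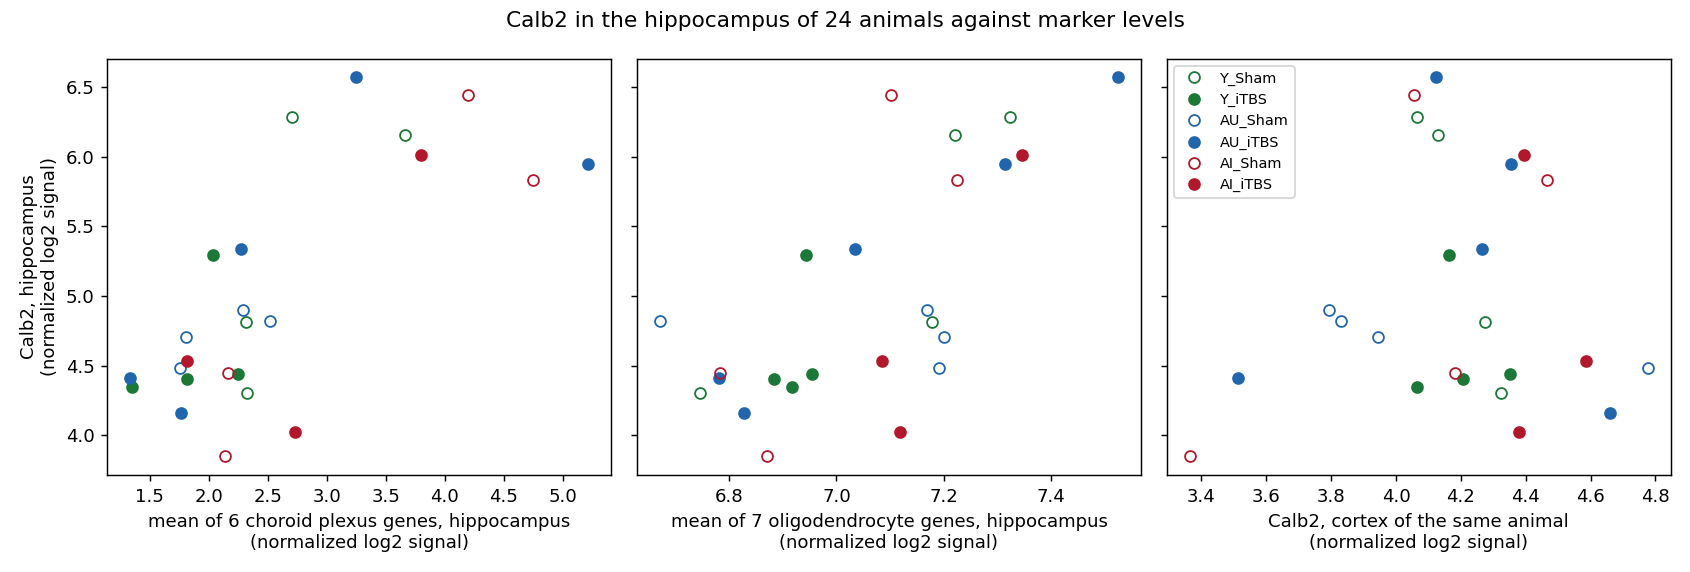
Calb2 in the hippocampus (y axis, normalized log2 signal) of 24 animals against the mean of 6 choroid plexus genes, the mean of 7 oligodendrocyte genes and Calb2 in the cortex of the same animal (x axes), with colours for Y, AU and AI and filled points for iTBS. AU_iTBS animal 1, of highest Calb2 (6.57), has a choroid plexus mean of 3.24 and an oligodendrocyte mean of 7.52. AI_Sham animal 3 (6.44) has 4.20 and 7.10, and Y_Sham animal 3 (6.28) has 2.70 and 7.32. The medians over animals are 2.28 and 7.09. The animals of highest Calb2 come from different groups.

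In the cortex, Slc32a1 moved with the mean of 8 glutamatergic neuron markers (r = 0.82, permutation p = 2e-05, adjusted p = 0.0032, rho = 0.70, permutation p = 0.00021, adjusted p = 0.0168). Without the 2 farthest animals r was 0.59, and it was 0.71 within the first scan batch and 0.96 within the later ones. Pvalb in the hippocampus also moved with glutamatergic markers (r = 0.66, permutation p = 0.00077, adjusted p = 0.0237, rho = 0.67, permutation p = 0.00063, adjusted p = 0.0231), with 0.58 without the 2 farthest animals, 0.66 in the first batch and -0.12 in the later ones, so that this relation did not hold within both parts. In 10 of the 160 relations r passed the adjusted threshold. Calb1 ran opposite to astrocyte markers, at r = -0.60 in hippocampus (-0.59 in the first batch, -0.61 in the later ones) and -0.62 in cortex (-0.61 and -0.22). In cortex, Pvalb had 0.66 with astrocyte markers (0.65 and 0.46). There Gad2 had 0.61 with pan-neuronal markers (0.75 and 0.022) and Lhx6 0.64 with glutamatergic markers (0.54 and 0.95). Hippocampal Pvalb had 0.62 with pan-neuronal markers (0.60 and -0.099).

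The 8 genes did not rise and fall together between animals. Of the 28 pairs in a region, 12 in hippocampus and 13 in cortex had a positive r, and the median r was -0.0036 and -0.082. In hippocampus 4 pairs passed the adjusted threshold, 3 of them positive. Gad2 and Calb2 ran together (r = 0.53, permutation p = 0.00739, adjusted p = 0.0318, rho = 0.66, permutation p = 6e-04, adjusted p = 0.0084). Without the 2 farthest animals r was 0.45, and it was 0.80 in the first scan batch and 0.47 in the later ones. Slc32a1 and Lhx6 also did (r = 0.53, permutation p = 0.0064, adjusted p = 0.0299, rho = 0.54, permutation p = 0.00696, adjusted p = 0.03), with 0.52, 0.24 and 0.88 in the same order. Pvalb and Calb2 ran opposite (r = -0.62, permutation p = 0.00159, adjusted p = 0.0111, rho = -0.63, permutation p = 0.00108, adjusted p = 0.0121), with -0.53 without the 2 farthest animals, -0.67 in the first scan batch and -0.33 in the later ones. Pvalb and Lhx6, which mark the same lineage, ran together (r = 0.62, permutation p = 0.00086, adjusted p = 0.00688, rho = 0.59, permutation p = 0.00344, adjusted p = 0.0214), with 0.52 without the 2 farthest animals, 0.60 in the first batch and 0.068 in the later ones, so that this relation did not hold within both parts. In cortex the same pair had r = 0.11 over all animals (permutation p = 0.604, adjusted p = 0.76), 0.84 in the first batch and 0.37 in the later ones.

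In cortex 10 pairs passed. Slc32a1 and Lhx6 had r = 0.82 (permutation p = 2e-05, adjusted p = 0.00056, rho = 0.59, permutation p = 0.00316, adjusted p = 0.0214), with 0.57 without the 2 farthest animals, 0.48 in the first batch and 0.92 in the later ones. Gad1 and Reln had r = 0.75 (permutation p = 2e-05, adjusted p = 0.00056, rho = 0.74, permutation p = 9e-05, adjusted p = 0.00504), with 0.68, 0.31 and 0.75 in the same order. Some cortical relations fell away within the scan batches. Gad1 and Lhx6 had r = -0.64 over all animals and -0.15 once batch means were removed, Gad1 and Calb1 -0.57 and 0.0040, and Gad1 and Calb2 -0.50 and -0.13. The rest fell less. Calb1 and Calb2 had 0.72 and 0.58 in the same order, Reln and Lhx6 -0.72 and -0.51, and Pvalb and Calb1 -0.65 and -0.55. Gad2 and Reln had 0.54 and 0.45, and Slc32a1 and Reln -0.58 and -0.41. Gad1 and Gad2, which encode the same activity, had r = 0.086 in hippocampus (permutation p = 0.688, rho = 0.21, permutation p = 0.333) and 0.48 in cortex (permutation p = 0.0196, adjusted p = 0.0646, rho = 0.49, permutation p = 0.0161, adjusted p = 0.0591).

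The genes with the pattern most like each member over the 24 animals were taken from 11636 named genes in hippocampus and 11264 in cortex, and Pearson's r is given as a description. In hippocampus, Calb2 was followed most closely by Igfbpl1 (r = 0.95), Cdhr1 (0.93) and Lbhd2 (0.91), each with at least 0.91 after removal of batch means. Pvalb was followed by Dact2 (0.93), Epop (0.89) and Gng13 (0.87), Gad1 by Pa2g4 (0.89), Acp2 (0.84) and Vsnl1 (0.84), and Calb1 by Znrf2 (0.92), Cd8b (0.91) and Scfd1 (0.91). Lhx6 was followed by Trim65 (0.92), Per3 (0.91) and LOC103693946 (0.91). The closest genes of Gad2 (Tmem50b, 0.75), Slc32a1 (Wnt5b, 0.81) and Reln (Amot, 0.73) were less alike.

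In cortex, Gad1 was followed by Epb41l3 (0.93), Pip4p1 (0.92) and Exoc3 (0.91), but these fell to 0.71, 0.62 and 0.59 once batch means were removed. Slc32a1 was followed by Numb, Clstn3 and Slc8a2 (0.93 each, and 0.91, 0.91 and 0.93 without batch means), and Lhx6 by Pik3r5 (0.95), Insl3 (0.95) and Pfkfb4 (0.94). Reln was followed by Map4k3 (0.92), Mgat4a (0.91) and Blvra (0.90), and Calb1 by Negr1 (0.87), Podn (0.86) and Tnfsf15 (0.86). Among the closest genes of Gad2 were Grin2a (0.76) and Ttpal (0.74), while those of Pvalb were S1pr5 (0.78), Tradd (0.78) and Tnfsf12 (0.78), and those of Calb2 Nptxr (0.80), Slc30a1 (0.79) and Spred3 (0.78).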

How the data were processed

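The deposited scanner files hold the processed signal intensity of each spot, which the authors obtained with Agilent Feature Extraction 12.0.3.1 after background subtraction, with spot flags of other kinds. A deposited table of standard scores (z-scores of log signal) served as an alternative. Log2 intensity was averaged over the unflagged copies of a probe, converted to a z-score over each array's non-control probes, and multiplied by the mean array SD (4.08). Repeat arrays of an animal were averaged, apart from a cortex repeat labelled AI_iTBS animal 2 that matched another animal. Probes well above background in at least 3 of 24 animals were tested with limma 3.58.1 in R 4.3.3, 6 group means per region, or within-animal region differences paired by animal, with Benjamini-Hochberg adjustment over all probes. The authors' own comparisons were not used. Across the arrays, 59.3% to 69.7% of probes were well above background, and the number of arrays limits the precision. Permutation tests were two-sided with 100000 resamples, and scripts were tested on simulated data.

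Named within a region were genes at an unadjusted p under 0.05 and the gene of smallest p; in the region comparison all 8 genes and, per list, the 2 largest called differences each way; and the 3 genes of highest r. A few genes that this rule names are not reported here. The members and lists were chosen with earlier results of these data known. Alternatives covered normalization, the filter, repeats, scan batch and slide, single animals, probes of a gene, and the study's selection rule. Separate animals were the replicates. RefSeq names came from the rat assembly GRCr8, which gave a symbol to 46.3% of probes.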

Additional observations from a re-analysis of the deposited data

Results flagged for a closer look

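Over the 8 genes, 80 sets of 4 or 5 animals of one group and region were tested for a single animal far from the rest (Dixon's test), and 7 were marked. Chance marks about 1 in 20 such sets. AU_Sham animal 1 was marked in 3 of the 7 sets, for Gad2 in both regions and for Calb2 in the cortex. It was the 1 AU_Sham animal of the later scan batches, and the part of the scan batch was not tested. Of the 7 marked sets, 3 were of Gad2. In the hippocampus, AU_Sham animal 1 had a Gad2 level of 4.23, where the nearest of the other 3 animals of its group was at 4.79, and the same animal was also the low one in the cortex, at 4.74 against 5.15 to 5.16. Gad2 in the cortex of Y_iTBS animal 4 was 5.06, where the next animal was at 4.62.

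Calb2 in the hippocampus of Y_iTBS animal 2 was 5.29, against 4.35 to 4.44 in the rest of its group, within the range of the other groups. Calb2 in the cortex of AU_Sham animal 1 was 4.78, against 3.79 to 3.94. Lhx6 in the hippocampus of AI_Sham animal 2 was 2.88, where the next animal was at 2.37, and Slc32a1 in the cortex of Y_iTBS animal 3 was -0.51, where the next was at -0.17.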

How the results depend on the processing

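The number of the 8 genes called stayed at 0 in every comparison within a region and in every interaction under all alternatives run, including the 4 ways of normalizing, the study's selection rule and each single animal left out. For hippocampus minus cortex it stayed at 4 without each animal in turn (range 4 to 4), with the unpaired fit that drops the replicate block, and in sham animals only, and it was 2 in iTBS animals only, where Pvalb and Reln were called, and 1 within the later scan batches, where Pvalb was called, a setting chosen after seeing the data. The cause was not tested. Within the first scan batch it was 5.

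Results that turned direction were not called in the main fit: Calb1, hippocampus minus cortex, was -0.019 with normexp background correction and quantile normalization and -0.025 in iTBS animals only; Slc32a1 was 0.070 within the first scan batch; Lhx6 was -0.34 within the later ones; and Gad2, AI minus AU sham cortex, was 0.10 within the later ones. That Gad2 value came from 1 AI_Sham and 1 AU_Sham animal. Replicate numbers in the labels do not pair animals of different groups. Same-numbered sham and iTBS animals had correlations of their deviations from -0.13 to 0.52 in hippocampus and -0.42 to 0.56 in cortex, and with the replicate block 0 genes were called, with Gad2 in AU cortex at -0.55 (adjusted p = 0.22). The slide as a random block gave a correlation of 0.26 in hippocampus and 0.34 in cortex. The groups held 3 to 5 animals, and a difference that did not pass the test was not shown to be absent.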

Other observations

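One hippocampus array carries a title of a young sham animal and a description of an aged unimpaired stimulated animal, and was put in no group. Its levels were 7.68 for Gad1, 4.59 for Gad2, 0.15 for Slc32a1, 6.79 for Pvalb, 3.59 for Calb1, 4.32 for Calb2, 4.87 for Reln and 2.68 for Lhx6, each inside the range of the 24 hippocampus samples. Over 243 probes its profile was closest to AU_iTBS animal 4 (r = 0.95, the next animal 0.45).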
